A study of Homo sapiens with 8 samples.

Results

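The regions described here are the BLISS+ regions of chromosome 1, stretches of the genome in which DNA double-strand breaks were enriched. They were chosen by 1 rule, chromosome 1 in the chromosome column of each list, and number 864 of the 10211 regions in 4 lists. The breaks were mapped by sBLISS, in which the ends of broken DNA are blunted inside fixed cells and joined to an adapter, so that sequencing starts at the break. The host was the U2OS line, derived from a human osteosarcoma, with a MycER transgene whose product joins Myc to part of the oestrogen receptor and becomes active when 4-hydroxytamoxifen (OHT) is added. The libraries labelled shNT_OHT came from cells with a non-targeting shRNA and the libraries labelled shCDK12_OHT from cells with an shRNA against CDK12, with 2 replicates each. Both groups had in common the MycER transgene, an shRNA induced with 1 µg/mL doxycycline, 300 nM OHT for 40 h, an 8 h mitotic block (nocodazole at 100 ng/mL), collection by shake-off, 18 h of release and fixation with 2% paraformaldehyde. Libraries of cells that received no OHT, 4 per the labels, were not analysed here, and the values lack a background with inactive MycER. The sources used here give neither the residual CDK12 level nor whether replicates came from separate cultures, and the spread between replicates may therefore be technical.

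CDK12 is a kinase that phosphorylates the tail of RNA polymerase II and is needed for full transcription of long genes, among them many genes of the DNA damage response. Oncogenic Myc is known to drive transcription and replication at the same time, and breaks arise where these processes interfere with each other. Chromosome 1 is the largest human chromosome. It has a short arm (1p) and a long arm (1q), and the proximal long arm carries one of the largest heterochromatin blocks of the genome, followed by a band rich in near-identical duplicated segments.

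Each list gave only the ends of its regions, on hg19, with no count or score, so depth is unknown. All ends fell on a 2 kb grid and no gap between neighbours was under 4 kb. The shNT_OHT lists named 13 chromosomes each and the shCDK12_OHT lists 22 and 23, and 8 chromosomes, including chromosome 1, occurred in every list. The copy number of chromosome 1 in these cells was not measured in these files, and its part in any value was not tested.

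The shNT_OHT lists held 68 and 37 regions on chromosome 1 in replicates 1 and 2, and the shCDK12_OHT lists held 431 and 328. Every shCDK12_OHT value lay far above every shNT_OHT value. The means were 52.5 ± 21.9 and 379.5 ± 72.8 regions (SD, n = 2), a log2 ratio of 2.85. Chromosome 1 was selected on this rise in listed regions, so its number, covered length and share are given as a description with no test. The covered length was 0.216 and 0.118 Mb in shNT_OHT and 1.466 and 1.056 Mb in shCDK12_OHT, a log2 ratio of 2.92.

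Over regions of all widths, the rise was steeper than the growth of the lists as a whole. Chromosome 1 made up 5.70% (95% Wilson interval 4.52 to 7.17) and 4.70% (3.43 to 6.40) of the shNT_OHT lists, against 9.41% (8.60 to 10.3) and 8.99% (8.10 to 9.96) of the shCDK12_OHT lists. Because the lists named different chromosomes, the share was also taken over the 8 common chromosomes, where it was 6.64 and 5.89% in shNT_OHT and 16.9 and 16.0% in shCDK12_OHT. The other 7 common chromosomes together rose from 956 and 591 regions to 2112 and 1721, a log2 ratio of 1.31. Of the 8, chromosome 1 had the highest log2 ratio, followed by chromosome 6 at 2.31 and chromosome 2 at 2.01, while chromosome 8 had the lowest at 0.486. Among regions of at least 4 kb, chromosome 1 made up 7.79 and 11.96% of the shNT_OHT lists and 10.6 and 10.8% of the shCDK12_OHT lists, so the groups overlapped.

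Along the chromosome, the longer shCDK12_OHT lists reached nearly every part, and the shNT_OHT lists fewer parts. Of 50 fixed windows of 5 Mb, 35 and 18 held a region in shNT_OHT replicates 1 and 2, and 46 and 47 did in the shCDK12_OHT replicates. The 5 fullest windows of each library took 39.7 and 59.5% of its regions in shNT_OHT, but 23.9 and 22.3% in shCDK12_OHT. The groups did not overlap and the means differed by -26.5 percentage points. With 2 libraries against 2, the exact permutation test (two-sided) cannot give a p-value below 0.333, and it gave 0.333 here and for every other library value tested. Shared length between libraries, described below, was tested by a one-sided exact permutation over the 3 ways to pair the libraries. That test has the same lower limit and gave 0.333 too. After adjustment over the 8 tests, p was 0.333 throughout. The median distance from a region to its nearest neighbour in the same library was 958 and 370 kb in shNT_OHT and 118 and 132 kb in shCDK12_OHT. Without the 1q cluster described below it was 1636 and 1196 kb in shNT_OHT and 120 and 140 kb in shCDK12_OHT. Leaving out all regions beside the centromere gap, as defined below, gave 1772 and 8042 kb against 120 and 138 kb. These measures all depend on the number of regions in a list, which differs between the groups, and the part of list length in them was not tested.

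**Figure D1:**
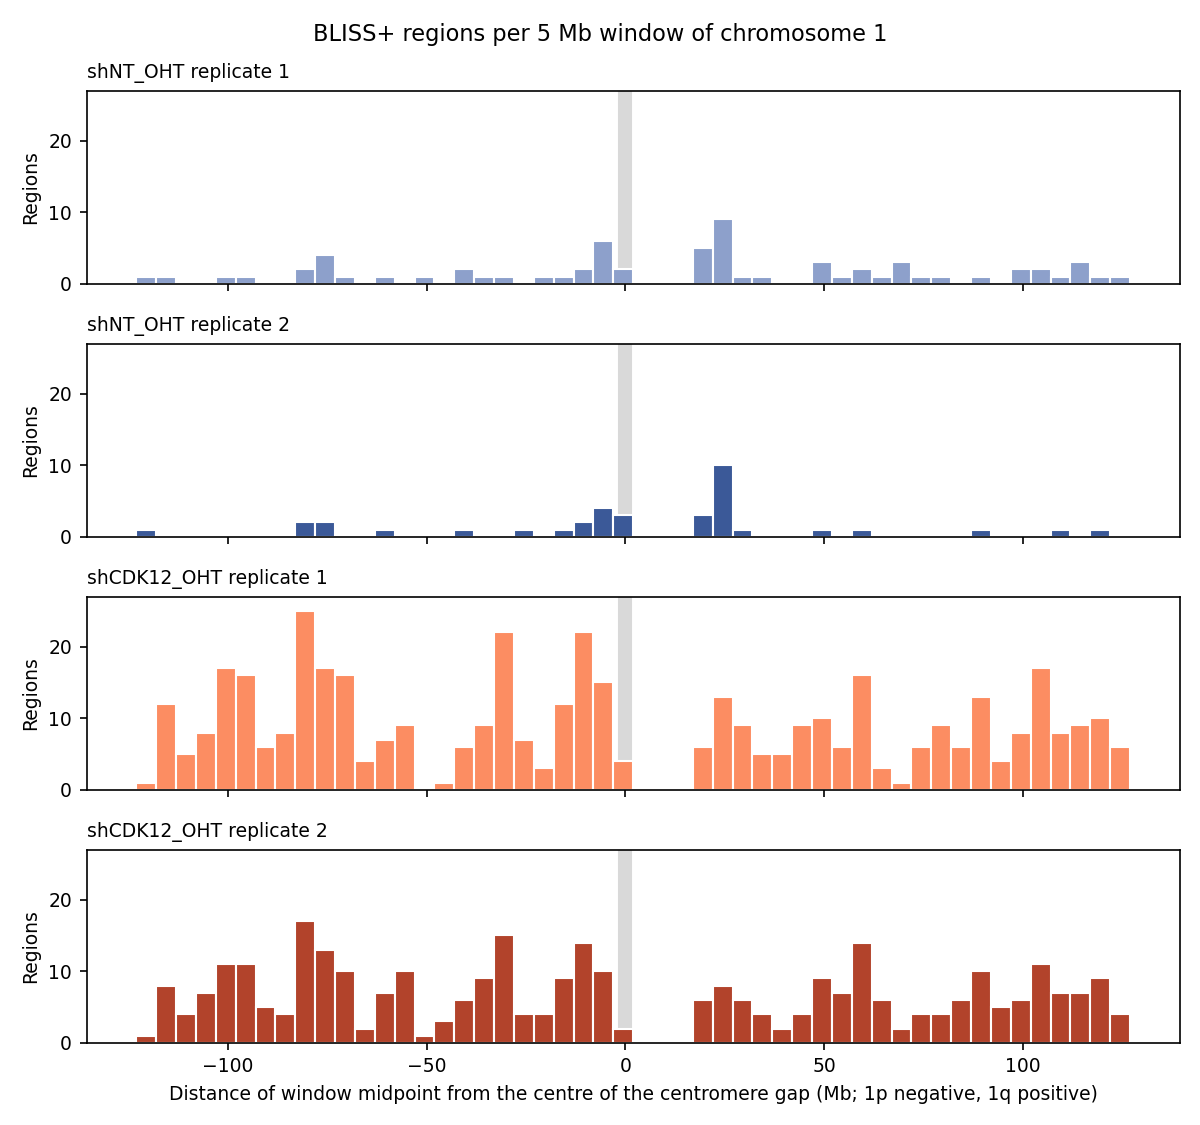
Number of BLISS+ regions in each fixed 5 Mb window of chromosome 1 in the 4 libraries, against the distance of the window midpoint from the centre of the centromere gap in Mb (1p at negative, 1q at positive distances; grey band, the gap). The shNT_OHT libraries peaked at 9 and 10 regions in 1 window of proximal 1q, whereas the shCDK12_OHT libraries peaked at 25 and 17 regions on 1p.

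Regions were found in 47 of the 50 windows, and the 3 empty windows lay between 125 and 140 Mb, in the proximal part of 1q. In 42 of the 47 windows (89.4%) both shCDK12_OHT libraries listed more regions than both shNT_OHT libraries, and in 0 windows fewer. The same pattern held in 82.4% of all 5 Mb windows with a region across the genome and in 80.4% of those on the 8 common chromosomes, and the opposite pattern in 1.63 and 3.32%. Chromosomes missing from a shNT_OHT list can hold no window with the opposite pattern, which lowers the genome-wide 1.63%. The window counts come from the same contrast that chromosome 1 was chosen by, so nothing is read from the excess. By arm, 22 of 24 windows of 1p and 20 of 22 windows of 1q with a region were higher, and the window across the gap was not. In 11 windows neither shNT_OHT library had a region and both shCDK12_OHT libraries did, a count with no value over other chromosomes beside it. When each window was expressed as a share of the chromosome 1 regions of its library, 21 windows were higher and 7 lower in shCDK12_OHT. These counts too were taken on chromosome 1 only.

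The windows with the largest rise in mean number lay on both arms, the first 3 of them on 1p. The window from 40 to 45 Mb held 2 and 2 regions in shNT_OHT and 25 and 17 in shCDK12_OHT, a rise of 19 regions. From 90 to 95 Mb the counts were 1 and 0 against 22 and 15. From 110 to 115 Mb they were 2 and 2 against 22 and 14. The mean rise of the latter windows was 18 and 16 regions. The windows from 20 to 25 Mb (1 and 0 against 17 and 11) and from 25 to 30 Mb (1 and 0 against 16 and 11) adjoin each other on distal 1p. On 1q, the window from 180 to 185 Mb held 2 and 1 regions against 16 and 14. The window from 225 to 230 Mb, with 2 and 0 against 17 and 11, had the same rise of 13 regions as the window from 25 to 30 Mb.

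Other windows hardly differed. Besides the empty windows, those with the lowest change were 0 to 5 Mb, with 1 region in each of the 4 libraries, 70 to 75 Mb, with 1 and 0 in shNT_OHT and 0 and 1 in shCDK12_OHT, and 190 to 195 Mb, with 3 and 0 against 1 and 2. Next to the centromere gap, the window from 120 to 125 Mb held 2 and 3 regions in shNT_OHT and 4 and 2 in shCDK12_OHT. The window from 145 to 150 Mb, the fullest of both shNT_OHT libraries with 9 and 10 regions, held 13 and 8 in shCDK12_OHT. The low-change windows thus comprised both sparse windows and the window that was fullest in shNT_OHT.

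On the arms, regions on 1p numbered 29 and 18 in shNT_OHT and 252 and 187 in shCDK12_OHT, and regions on 1q numbered 39 and 19 against 179 and 141. No region lay between the arms. The 1p share was 42.6% (31.6 to 54.5) and 48.6% (33.4 to 64.1) in shNT_OHT and 58.5% (53.8 to 63.0) and 57.0% (51.6 to 62.3) in shCDK12_OHT. The means of 45.6 ± 4.24% and 57.7 ± 1.03% (SD, n = 2) differed by 12.1 percentage points with groups that did not overlap (exact permutation test, p = 0.333). This difference did not keep its direction without 1 cluster of proximal 1q, described below. The 1p share was then 52.7 and 72.0% in shNT_OHT and 59.9 and 58.8% in shCDK12_OHT, and the difference reversed to -3.03 points. Replicate 1 of shNT_OHT stayed below both shCDK12_OHT libraries, and replicate 2, with 25 regions left, lay above them. Without all regions beside the centromere gap the difference was 2.37 points, with shares of 49.0 and 64.7% against 59.8 and 58.6%, so the groups overlapped. Per megabase of arm, shCDK12_OHT listed 2.07 and 1.54 regions on 1p and 1.44 and 1.13 on 1q, and shNT_OHT listed 0.239 and 0.148 on 1p and 0.313 and 0.152 on 1q. The length of 1q used here includes the stretch before chr1:142534001, where no library listed a region, which lowers the 1q values. Away from the gap, shCDK12_OHT listed 2.04 and 1.55 per Mb on 1p and 1.60 and 1.27 on 1q. The shNT_OHT values there were 0.206 and 0.094 on 1p and 0.251 and 0.060 on 1q.

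The rise differed more between the parts beside the centromere gap and the rest of the chromosome than between the arms, a difference that was not tested. Beside the gap, defined as the last 5 Mb of 1p and the first 25 Mb of 1q, shNT_OHT listed 19 and 20 regions and shCDK12_OHT 33 and 21, so that the groups came close to each other. Elsewhere, shNT_OHT listed 49 and 17 regions and shCDK12_OHT 398 and 307. The share beside the gap was therefore 27.9 and 54.1% in shNT_OHT and 7.66 and 6.40% in shCDK12_OHT, a difference of -34.0 percentage points (exact permutation test, p = 0.333). On 1p away from the gap the mean count rose from 17.5 to 209 regions (log2 ratio 3.58), and on 1q away from the gap from 15.5 to 143.5 (3.21). In the last 5 Mb of 1p it went from 6 to 10.5 (0.81), and in the first 25 Mb of 1q from 13.5 to 16.5 (0.29).

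**Figure D2:**
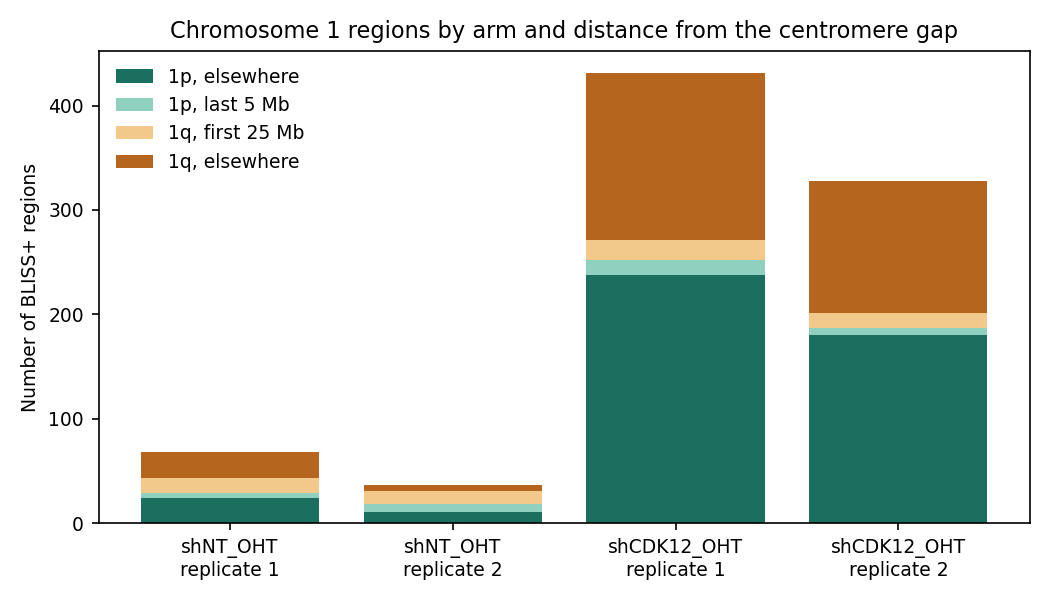
Number of BLISS+ regions on chromosome 1 in each library, stacked by arm and by distance from the centromere gap (1p beside the gap, last 5 Mb of the arm; 1q beside the gap, first 25 Mb of the arm). The parts beside the gap hold 19 and 20 regions in shNT_OHT and 33 and 21 in shCDK12_OHT, and the parts elsewhere grow from 49 and 17 to 398 and 307.

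The regions nearest the gap occurred in every library. The last region of 1p, chr1:121484001-121486000, which is 2 kb wide and close to the edge of the gap, was listed with the same ends in all 4 libraries. The first region of 1q, chr1:142534001-142540000, was covered over 6 and 4 kb in shNT_OHT and over 6 and 4 kb in shCDK12_OHT. The stretch between them held no region in any library, and how much of it the build holds as known sequence was not examined here. A list alone cannot tell an absence of breaks from sequence to which reads could not be placed. The empty windows from 125 to 140 Mb lie within this stretch, and the longest stretch without a gained region, given below, spans it.

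Within proximal 1q, one cluster held much of what the shNT_OHT libraries listed on the whole chromosome. Between 144.9 and 145.2 Mb, limits chosen after the values were seen, there were 13 and 12 regions in shNT_OHT and 10 and 10 in shCDK12_OHT. They made up 19.1 and 32.4% of the chromosome 1 regions of the shNT_OHT libraries and 2.32 and 3.05% of those of the shCDK12_OHT libraries. The covered length in the cluster was 92 and 52 kb in shNT_OHT and 112 and 86 kb in shCDK12_OHT, so the groups overlapped there while the rest of the chromosome rose. It amounted to 42.6 and 44.1% of the covered length of chromosome 1 in shNT_OHT, and to 7.64 and 8.14% in shCDK12_OHT. The cluster lies in a band known for duplicated segments, and the effect of read placement on it was not tested.

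**Figure D3:**
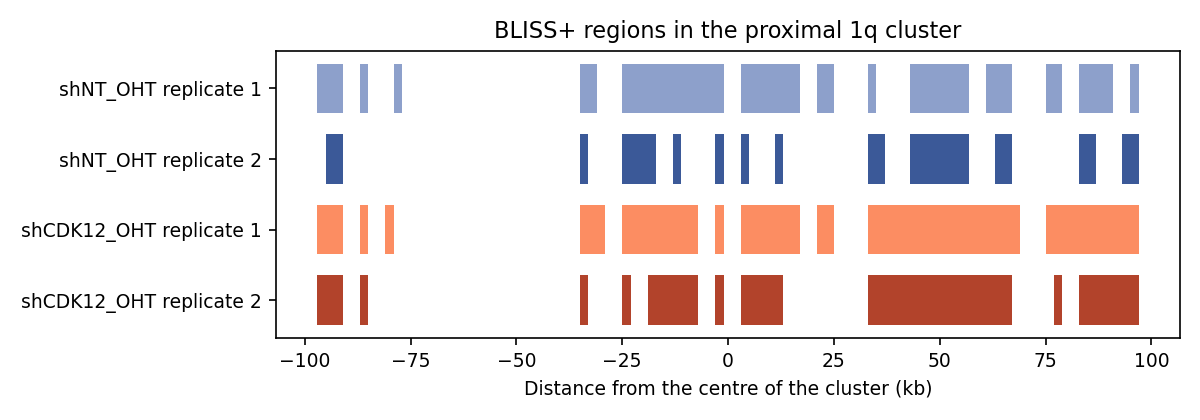
BLISS+ regions of each library in the proximal 1q cluster, drawn as bars against the distance from the centre of the cluster in kb. All 4 libraries cover much the same stretches, with 13, 12, 10 and 10 regions from top to bottom, and the widest stretch, right of the centre, is in 3 pieces in each shNT_OHT library and in 1 piece in each shCDK12_OHT library.

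The 4 widest of the 12 merged regions present in all 4 libraries lay in this cluster. The widest, chr1:145054001-145090000, spans 36 kb and was covered over 22 kb in 3 pieces in each shNT_OHT library and over 36 and 34 kb in 1 piece in each shCDK12_OHT library. Next came chr1:144996001-145020000, covered over 24 and 12 kb in shNT_OHT and 20 and 16 kb in shCDK12_OHT. The region chr1:145096001-145118000 was covered over 14 and 8 kb against 22 and 16 kb, and chr1:145024001-145038000 over 14 and 4 kb against 14 and 10 kb. The groups overlapped in coverage at the second and the fourth of these and not at the first and the third. The fifth widest, chr1:113930001-113940000, was the widest one away from the gap and was covered over 2 and 6 kb in shNT_OHT and 10 and 6 kb in shCDK12_OHT.

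The 12 regions shared by all libraries were 2.26% of the 530 merged regions of chromosome 1, against 3.75% over the common chromosomes. Over all chromosomes the share was 2.23%, lowered by chromosomes that are missing from a list and so cannot hold such a region. Of the 12, 9 lay beside the centromere gap. The other 3 were all on 1p: the 10 kb region already given, a 2 kb region at chr1:61550001-61552000 listed with the same ends 4 times, and chr1:564001-572000. The last of these, near the tip of 1p, was covered over its full 8 kb in each of the 4 libraries. That stretch is known to hold a near-complete copy of part of the mitochondrial genome, as background that was not checked against a sequence here.

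After overlapping and abutting regions of the 4 lists had been merged, 448 of the 530 merged regions (84.5%) were found in shCDK12_OHT only, 28 (5.28%) in shNT_OHT only and 54 (10.2%) in both groups. These shares are given for chromosome 1 only. The shCDK12_OHT lists were longer over all chromosomes as well, so nothing particular to chromosome 1 is read from them. Regions present in both shCDK12_OHT replicates and in no shNT_OHT library, called gained here, numbered 210, or 39.6% of the merged regions. The same class made up 34.0% of merged regions over all chromosomes and 29.8% over the 8 common chromosomes. On chromosomes missing from both shNT_OHT lists, every region in both shCDK12_OHT replicates falls in this class. The class is cut from the lists being compared, and it is described here with no test. In the opposite direction, 0 merged regions of chromosome 1 were present in both shNT_OHT replicates and absent from both shCDK12_OHT replicates. This opposite class made up 1.65% over the common chromosomes. Over all chromosomes it made up 0.984%, lowered by chromosomes missing from a shNT_OHT list, where it cannot occur. All 28 merged regions particular to the shNT_OHT lists came from a single library, 20 from replicate 1 and 8 from replicate 2, and 27 of them were 1 bin of 2 kb wide.

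The gained regions lay along both arms. There were 130 on 1p and 80 on 1q, a 1p share of 61.9% (55.2 to 68.2), and a density of 1.07 per Mb of 1p and 0.642 per Mb of 1q. Away from the gap the densities were 1.08 and 0.772 per Mb. Only 7 of the 210 lay beside the gap. They fell into 43 of the 50 windows, and 62 of them (29.5%) into the 6 windows that held most. The windows from 40 to 45 Mb and from 90 to 95 Mb had 12 gained regions each, the window from 110 to 115 Mb had 11 and the window from 20 to 25 Mb had 10. The longest stretch without any ran over 26.1 Mb across the centromere, and the next over 9.85 Mb on 1p (chr1:68298001-78144000) and 8.18 Mb on 1q (chr1:189198001-197376000).

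By definition gained regions touch no shNT_OHT region, and with 86 joined shNT_OHT regions on the chromosome long distances between them are to be had in any case. The median distance to the closest shNT_OHT region was 993 kb. Of the 210, 20 (9.52%) were within 100 kb of one and 104 (49.5%) were farther than 1 Mb from any. Among themselves they were closer, with a median of 219 kb to the next gained region and 52 (24.8%) that had another within 100 kb, although the 210 gained regions also outnumber the shNT_OHT regions.

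The gained regions had a mean merged width of 3.88 kb and a median of 4 kb, 104 (49.5%) were a single 2 kb bin and 3 reached 10 kb. Over all 530 merged regions the mean was 3.31 kb, the median 2 kb and the single-bin share 68.5%, and presence in both replicates, which the class requires, is itself easier to meet for a wide region. The widest, chr1:94700001-94716000 on 1p, was covered over 16 kb in shCDK12_OHT replicate 1 and 12 kb in replicate 2. The next were chr1:41702001-41712000 on 1p, with 10 and 4 kb covered, and chr1:211746001-211756000 on 1q, with 8 and 10 kb. Of the 14 gained regions with a width of 8 kb, the first by position were chr1:8082001-8090000 with 8 and 2 kb, chr1:53014001-53022000 with 6 and 4 kb and chr1:54408001-54416000 with 8 and 2 kb. Of these 6 regions, 5 were covered over a greater length in replicate 1. Over the whole class, 147 of the 210 (70.0%) had the same ends in both replicates, 45 covered more in replicate 1, 14 covered more in replicate 2 and the others covered equal lengths with different ends.

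Regions seen in a single shCDK12_OHT library were narrower than those that recurred. Replicate 1 had 171 merged regions of its own, with a mean width of 2.39 kb and 87.1% of them a single bin. Replicate 2 had 67, with a mean width of 2.27 kb and 91.0% a single bin. The regions of replicate 1 that belonged to gained regions averaged 3.62 kb with 56.2% a single bin, and those of replicate 2 averaged 3.12 kb with 68.2%. A wider region is also more easily touched by another.

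Over all its regions, chromosome 1 had a mean region width of 3.18 and 3.19 kb in shNT_OHT and 3.40 and 3.22 kb in shCDK12_OHT, a difference of 0.13 kb (exact permutation test, p = 0.333). The median was 2 kb in every library. The closeness of these means hid different compositions. Away from the gap the mean width was 2.12 and 2.82 kb in shNT_OHT and 3.25 and 3.04 kb in shCDK12_OHT, and beside it 5.89 and 3.50 kb against 5.27 and 5.90 kb. Of the regions of at least 4 kb, 91.7 and 72.7% lay beside the gap in shNT_OHT, where there were 12 and 11 of them, and 8.33 and 9.09% did in shCDK12_OHT, where there were 144 and 99. Regions of 10 kb or more numbered 3, 1, 8 and 7 in the same order of libraries, and 3, 1, 4 and 4 of them lay in the 1q cluster.

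Single-bin regions made up 82.4% (71.6 to 89.6) and 70.3% (54.2 to 82.5) in shNT_OHT and 66.6% (62.0 to 70.9) and 69.8% (64.6 to 74.5) in shCDK12_OHT. The means differed by -8.11 percentage points, with a gap between the groups of under 1 point (exact permutation test, p = 0.333). In both shCDK12_OHT libraries regions of 6 kb outnumbered regions of 4 kb, with 68 against 50 in replicate 1 and 46 against 37 in replicate 2. In shNT_OHT there were 4 against 3 and 2 against 6. Relative to the other common chromosomes, the regions of chromosome 1 were wider by 0.49 and 0.67 kb in shNT_OHT and by 0.08 and 0.19 kb in shCDK12_OHT, and this excess differed between the groups by -0.45 kb (exact permutation test, p = 0.333). Without the cluster it was -0.43 and 0.12 kb in shNT_OHT and -0.11 and 0.02 kb in shCDK12_OHT, so that the groups overlapped.

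**Figure D4:**
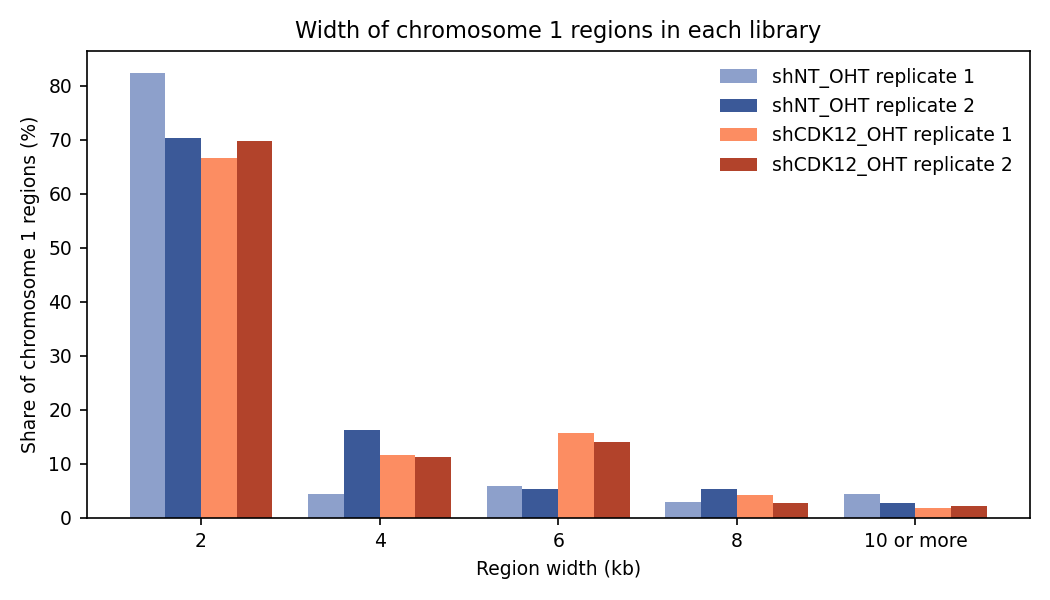
Share of chromosome 1 regions by width in kb in each of the 4 libraries; regions are built from 2 kb bins. Single-bin regions make up 82.4 and 70.3% in shNT_OHT and 66.6 and 69.8% in shCDK12_OHT, and the bars at 6 kb stand above those at 4 kb in both shCDK12_OHT libraries.

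At the 54 merged regions of chromosome 1 found in both groups, the shCDK12_OHT lists covered more than the shNT_OHT lists (replicates joined) at 23, the same length at 29 and less at 2. These counts were taken on chromosome 1 only, so nothing particular to it is read from them. The 40 of these away from the gap were wider in shCDK12_OHT at 20, equal at 20 and narrower at 0. Their mean covered length was 2.35 kb in shNT_OHT and 4.60 kb in shCDK12_OHT. A listed region covers at least 2 kb, so a merged region at that width in shNT_OHT could not be narrower in shCDK12_OHT. With a shNT_OHT mean of 2.35 kb, most of the 40 were at that floor, and nothing is read from the absence of narrower ones. Of the 14 beside the gap, 3 were wider, 9 equal and 2 narrower, with means of 8 and 9 kb. Union over replicates favours the group with the longer lists, and this was not corrected for.

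Over all widths, replicates shared a larger part of their regions in shCDK12_OHT than in shNT_OHT. Of the shNT_OHT regions, 15 of 68 (22.1%, 13.8 to 33.3) in replicate 1 touched a region of replicate 2, and 18 of 37 (48.6%, 33.4 to 64.1) in replicate 2 touched one of replicate 1. Of the shCDK12_OHT regions, 248 of 431 (57.5%, 52.8 to 62.1) and 250 of 328 (76.2%, 71.3 to 80.5) did so. The agreement of the shNT_OHT replicates came largely from beside the gap, where 11 of 19 and 14 of 20 regions were shared, against 18 of 33 and 20 of 21 in shCDK12_OHT. Elsewhere on the chromosome only 4 of 49 (8.16%, 3.22 to 19.2) and 4 of 17 (23.5%, 9.56 to 47.3) were. The shCDK12_OHT replicates shared 230 of 398 (57.8%) and 230 of 307 (74.9%) of the regions away from the gap. On the other common chromosomes the 4 shares were 24.0, 40.1, 57.0 and 70.8% in the same order. Among regions of at least 4 kb, 7 of 12 (58.3%) and 7 of 11 (63.6%) were shared in shNT_OHT and 83 of 144 (57.6%) and 83 of 99 (83.8%) in shCDK12_OHT, so that replicate 1 no longer differed in the same direction. A list with more regions is more easily touched, and the part of list length in these shares was not tested.

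Counts per window were compared in the same way. Over the 47 windows with a region, which share a library with one another, the shCDK12_OHT replicates correlated with Pearson's r = 0.93 (Spearman's rho = 0.90) and the shNT_OHT replicates with r = 0.85 (rho = 0.57). Without the windows from 140 to 150 Mb, which hold the cluster, r was 0.93 in shCDK12_OHT and 0.66 in shNT_OHT over 45 windows. Between groups, r ran from 0.19 to 0.28 over all 47 windows and rho from 0.30 to 0.39, and without those 2 windows r ran from 0.31 to 0.37.

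**Figure D5:**
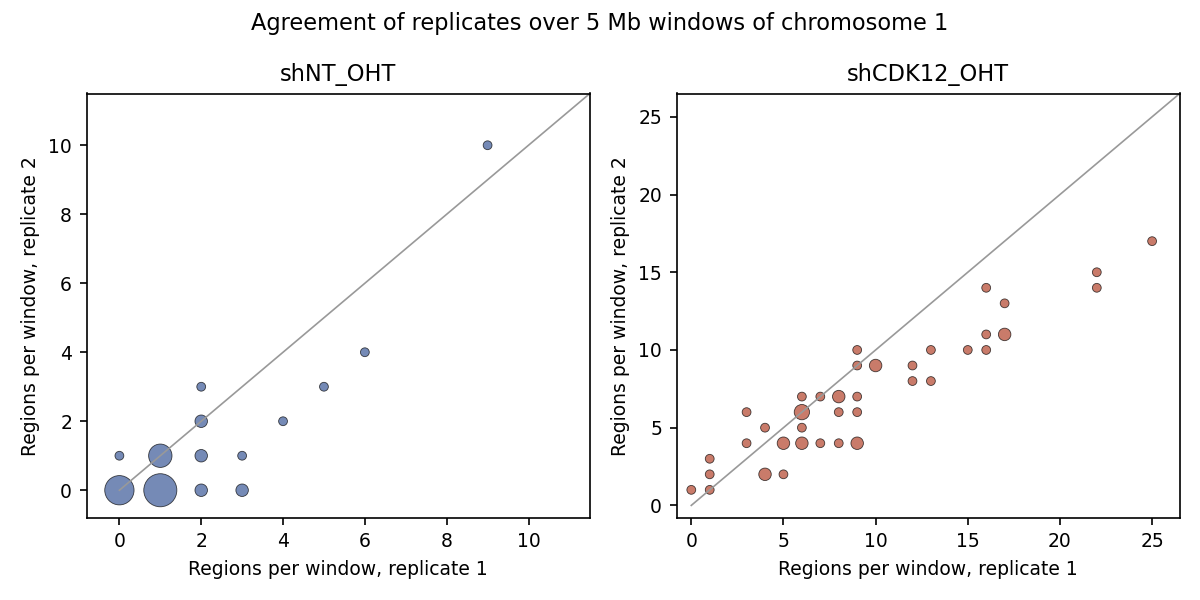
Number of regions per 5 Mb window in replicate 1 against replicate 2, for shNT_OHT (left) and shCDK12_OHT (right); the area of a point grows with the number of windows at that place, and the line marks equal counts. The shNT_OHT relation is drawn out by windows of proximal 1q with up to 9 and 10 regions, while the shCDK12_OHT windows fill the range up to 25 and 17 regions, mostly below the line.

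In shared length, pairs can only be read against the lengths of their lists. The Jaccard index, the length covered by both lists divided by the length covered by either, was 0.256 for the shNT_OHT replicates and 0.498 for the shCDK12_OHT replicates, and lay between 0.0645 and 0.128 for pairs from different groups. The largest value that the unequal lengths allow was 0.546 for the shNT_OHT pair, 0.720 for the shCDK12_OHT pair and 0.0805 to 0.205 for the mixed pairs, so the mixed pairs could not have reached either within-group value and the excess of 0.282 within groups carries no information on agreement. As a percentage of that ceiling, the index was 46.8% for the shNT_OHT pair, 69.1% for the shCDK12_OHT pair and 62.4 to 80.2% for the mixed pairs.

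Most shNT_OHT regions were also found in shCDK12_OHT. With replicates joined, 57 of 86 shNT_OHT regions (66.3%, 55.8 to 75.4) touched a shCDK12_OHT region, and 54 of 503 shCDK12_OHT regions (10.7%, 8.32 to 13.7) touched a shNT_OHT region. The share of shNT_OHT regions was 25 of 41 (61.0%) on 1p and 32 of 45 (71.1%) on 1q. Away from the gap it was 40 of 62 (64.5%), and the shNT_OHT replicates themselves had few regions in common there. The joined shCDK12_OHT lists held 469 regions in that part, against 49 and 17 in the shNT_OHT lists. A longer list is more easily touched, so the overlap with shCDK12_OHT and that between shNT_OHT replicates cannot be compared directly. On the other common chromosomes 36.6% of shNT_OHT regions and 18.1% of shCDK12_OHT regions were touched.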

How the data were processed

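The authors deposited a region list for each library, giving chromosome, start and end (a unit of base positions, classed as other, with no count, signal or score). Per the labels' processing notes the build is hg19. The sources used here do not give the bin threshold or any down-sampling for these lists; a later study that reused the shNT_OHT lists describes calling UMI-rich 2 kb bins and joining them across short gaps. Starts were shifted to count from 1.

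From these lists, counts, widths, arms (1p to 121.5 Mb, 1q from 124.5 Mb, by region midpoint), fixed 5 Mb windows, overlaps of at least 1 bp and Jaccard indices were computed per library (Python 3.11.15, NumPy 2.4.6, SciPy 1.17.1, Matplotlib 3.10.9). Intervals are 95% Wilson intervals and cover counting error only. Groups of 2 libraries were compared by exact permutation over the 6 relabellings, two-sided. For the Jaccard index the permutation ran over the 3 ways to split the 4 libraries into pairs, one-sided. Benjamini-Hochberg adjustment covered all 8 tests. The scripts were tested on simulated data.

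Members, lists and windows were chosen with earlier results of these data known. Regions named were the 6 widest gained merged regions, the 5 widest in all 4 libraries, and any in both shNT_OHT libraries and no shCDK12_OHT library. Windows named were the 6 with the largest rise and the 3 with the lowest change. No sequence, gene or GC content is given, since an hg19 genome was not used here. Alternatives covered width, merging, windows and left-out libraries.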

Additional observations from a re-analysis of the deposited data

How the results depend on the processing

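Of 120 alternative values for 19 results, 98 kept their direction or stayed near the main value, 18 moved and 4 reversed. The 98 include blocked differences of means, which equal the main value by construction. Several that kept their direction changed in size: with regions of at least 4 kb the 1p difference was 36.6 points and the difference beside the gap -73.5 points, and without the 1q cluster the width difference was 0.69 kb and the difference beside the gap -17.0 points. Limiting the lists to regions of at least 4 kb, the chromosome 1 share rose by 0.83 percentage points, mean width fell by 1.22 kb, replicate agreement was 58.3 and 63.6% in shNT_OHT replicates 1 and 2 and 57.6 and 83.8% in shCDK12_OHT replicates 1 and 2, 93.8% of shNT_OHT and 6.88% of shCDK12_OHT regions touched the other group, and 74 of 161 merged regions were gained. Over the common chromosomes the share rose by 10.2 points. Joining regions across gaps of up to 50 kb reversed the 1p difference to -0.23 points and the width difference to -0.25 kb. Allowing 10 kb between regions gave an agreement of 80.8% in shCDK12_OHT replicate 2. Windows higher in shCDK12_OHT numbered 76 of 105 at 2 Mb, 21 of 24 at 10 Mb and 21 of 47 as shares of the chromosome 1 regions of a library. The cause of these changes was not tested.

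Alternatives added after seeing the data left out the 1q cluster, which reversed the 1p difference to -3.03 points and gave agreements of 10.9 and 24.0% in shNT_OHT replicates 1 and 2, or left out the regions beside the gap, which gave 8.16 and 23.5%.

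Leaving out 1 library at a time, the log2 ratio of the number ran from 2.48 to 3.36 and of covered length from 2.55 to 3.42. The rise in share ran from 3.49 to 4.50 points, the 1p difference from 9.09 to 15.1 points and the width difference from 0.04 to 0.22 kb. The nearest-neighbour difference ran from -833 to -245 kb and the 5-window difference from -36.4 to -16.6 points. The difference beside the gap ran from -47.0 to -20.9 points and the single-bin difference from -14.1 to -2.07 points. The difference between groups in the width excess over other chromosomes ran from -0.54 to -0.36 kb, and the higher windows from 42 to 44. The shNT_OHT share touched ran from 59.3 to 78.4%, highest without shNT_OHT replicate 1. The shCDK12_OHT share ran from 4.77%, without shNT_OHT replicate 1, to 15.2%, without shCDK12_OHT replicate 1.

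From window to window, same-numbered replicates deviated together little or not at all (r = -0.04 over 47 windows of chromosome 1, -0.22 for shares, 0.19 over 271 windows of the common chromosomes). The replicate numbers were therefore not taken as pairs. This r leaves out a shift common to all windows. Replicate 1 listed more chromosome 1 regions than replicate 2 in both groups (68 and 37, 431 and 328). Whether the replicate number stands for a shared effect on list length was not tested. Blocking on the replicate number gave a log2 ratio of 2.91 in region number and of 2.96 in length covered. The crossed pairing, added after seeing the data, gave 2.91 too. The block changed no other difference. The mean of paired differences is the same under any pairing, so the crossed value and the unchanged differences were fixed in advance. They cannot show whether pairing matters. Depth is unknown, so a region missing from a list may hold breaks below the caller's threshold.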
